A study of Homo sapiens with 4 samples.

Results

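The genes described here are 40 components of the autophagy and lysosome pathway, chosen by name from the 60544 rows of a gene count table: 26 genes of the autophagy machinery and its cargo receptors, 11 genes of lysosomal proteins, and the 3 transcription factor genes TFEB, TFE3 and MITF. All 40 names were found. A low-count filter kept 39 of them for testing. It dropped HEXA. The cells were PC3, an established human prostate cancer line, carrying either the hairpin labelled shNC (the control, 2 libraries) or the hairpin labelled sh812 (2 libraries), with no other treatment named, and the measurement was poly(A) RNA sequencing. The series gives METTL3 knockdown against control as its design, and sh812 was read as the knockdown because it is the only other label. METTL3 is the catalytic subunit of the enzyme complex that places N6-methyladenosine on messenger RNA. The labels name a single knockdown hairpin and do not say whether replicates came from separate cultures, so the p-values measure the spread between these libraries, which may be technical.

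Autophagy wraps cytoplasm and organelles in a double membrane and delivers them to the lysosome for breakdown. The ULK kinase complex starts the process, a lipid kinase complex built on PIK3C3 and BECN1 marks the site, ATG9 and ATG2 supply lipid, and a conjugation system attaches small ATG8 proteins such as LC3B to the growing membrane, where cargo receptors such as SQSTM1 bind them. The lysosome holds acid hydrolases inside a membrane of heavily glycosylated proteins, and TFEB, TFE3 and MITF switch on many lysosomal and autophagy genes by binding a short palindromic element in their promoters.

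Total counts ranged from 31450648 to 37041330 per library. METTL3 itself stood at 44.4 and 43.6 CPM (counts scaled to library size by the TMM method) in shNC and at 7.66 and 8.75 CPM in sh812, which is 18.7% of control. Its log2 fold change was -2.42 (SE 0.11, adjusted p = 5.54e-14), by the quasi-likelihood test of edgeR, whose p-values carry the Benjamini-Hochberg correction over all genes tested. The labelled cell type was checked against markers. KRT8, KRT18, KRT19, VIM, CD44 and EPCAM summed to 1783 to 1967 CPM in each library, with KRT18 and EPCAM higher in sh812, and 5 leukocyte markers summed to 0.684 to 1.13 CPM. The 4 endothelial markers summed to 41.7 to 50.4 CPM and the 5 fibroblast markers to 45.1 to 54.2 CPM. The part of these markers in the results was not tested. In RNA from whole cultures, fewer cells that express a gene and less RNA per cell cannot be told apart.

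The element bound by the TFEB family is described first, although it was looked up after the tests had been run. It groups the members by a feature of their promoter sequence. Windows from 250 bases before to 50 bases after the annotated start were taken from RefSeq (GRCh38.p14) and matched by symbol for 35 of the 40 members. RB1CC1, UVRAG, LAMP2, CTSB and HEXA had none. The motifs searched on both strands were the E-box CACGTG and 2 longer forms that contain it: TCACGTGA, and the same 8 letters with G before and C after, the full CLEAR palindrome. The E-box was present in 7.26% of all 35116 windows, TCACGTGA in 0.98% and the full palindrome in 0.353%. Counted by gene, with any of its windows allowed, the E-box was present in 8.77% of all genes that have a window and in 12.1% of the tested genes that have one. It was found in 4 of the 8 lysosome members with a window (LAMP1, MCOLN1, CTSA and CTSD), in 2 of the 24 autophagy members with one (ATG3 and ATG14), and in none of TFEB, TFE3 and MITF. The lines that follow show members with the motif, and 3 other lysosomal genes with the full palindrome, chosen because their RNA passed the test. GALNS, PLBD2 and GNPTG also hold the full palindrome, did not pass the test and are not shown. These lines alone therefore do not relate motif to response. Each line gives 30 bases, 5′ to 3′ on the strand of the gene, with the longest of the 3 forms in capitals.
MCOLN1, chr19:7522598-7522627, plus strand: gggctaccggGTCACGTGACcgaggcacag
MCOLN1, chr19:7522571-7522600, plus strand: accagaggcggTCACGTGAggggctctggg
LAMP1, chr13:113297199-113297228, plus strand: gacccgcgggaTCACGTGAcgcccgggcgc
LAMP1, chr13:113297226-113297255, plus strand: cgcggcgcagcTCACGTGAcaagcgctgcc
CTSA, chr20:45891298-45891327, plus strand: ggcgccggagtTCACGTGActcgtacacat
CTSD, chr11:1763957-1763986, minus strand: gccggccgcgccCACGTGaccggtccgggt
ATG3, chr3:112561940-112561969, minus strand: agagtctagtgTCACGTGAggccccggtgg
GAA, chr17:80101538-80101567, plus strand: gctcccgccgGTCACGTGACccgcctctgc
IGF2R, chr6:159969042-159969071, plus strand: ccgggcggctGTCACGTGACgcggttccgg
ATP6V1G1, chr9:114587699-114587728, plus strand: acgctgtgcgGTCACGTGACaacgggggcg
The LAMP1 window held 6 E-boxes in all, and the MCOLN1, CTSA and ATG3 windows 2 each. The CTSD and ATG14 windows held 1 each, and that of ATG14 is not shown. A match is a sequence description and does not show that a factor binds there.

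Across the pathway, sh812 cells had less RNA of several lysosomal genes and of a few autophagy genes, to between 72.8% and 87.5% of control, and most of the core autophagy machinery did not pass the test. Of the 39 members tested, 9 fell in sh812 and 0 rose at an adjusted p under 0.05 in edgeR. For all 16802 genes tested, 10.8% were called, 5.43% as higher and 5.42% as lower. That balance depends on the scaling: 912 genes were higher and 910 lower with TMM, and 561 higher and 1328 lower with library size alone. Among the 9543 genes with a mean of at least 10 CPM, the range that holds every tested member but TFEB and GABARAP, 16.3% were called, 8.54% as higher and 7.72% as lower. The 9 members that fell were ATG13, WIPI1, GABARAPL1 and SQSTM1 of the autophagy list, TFE3, and LAMP2, NPC1, CTSA and CTSB of the lysosome list. At an unadjusted p under 0.05 in edgeR, 14 members were lower and 1, ATG101, was higher. Of all 16802 genes tested, 24.8% passed that cut, 2165 as lower and 1995 as higher. DESeq2 and limma-voom also called 0 members higher. Without sh812 replicate 1, NPC1 was the only one of the 9 still called in edgeR, and without sh812 replicate 2, NPC1 and CTSB were. The calls over all genes went from 1822 to 313 and 424 in those fits.

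**Figure D1:**
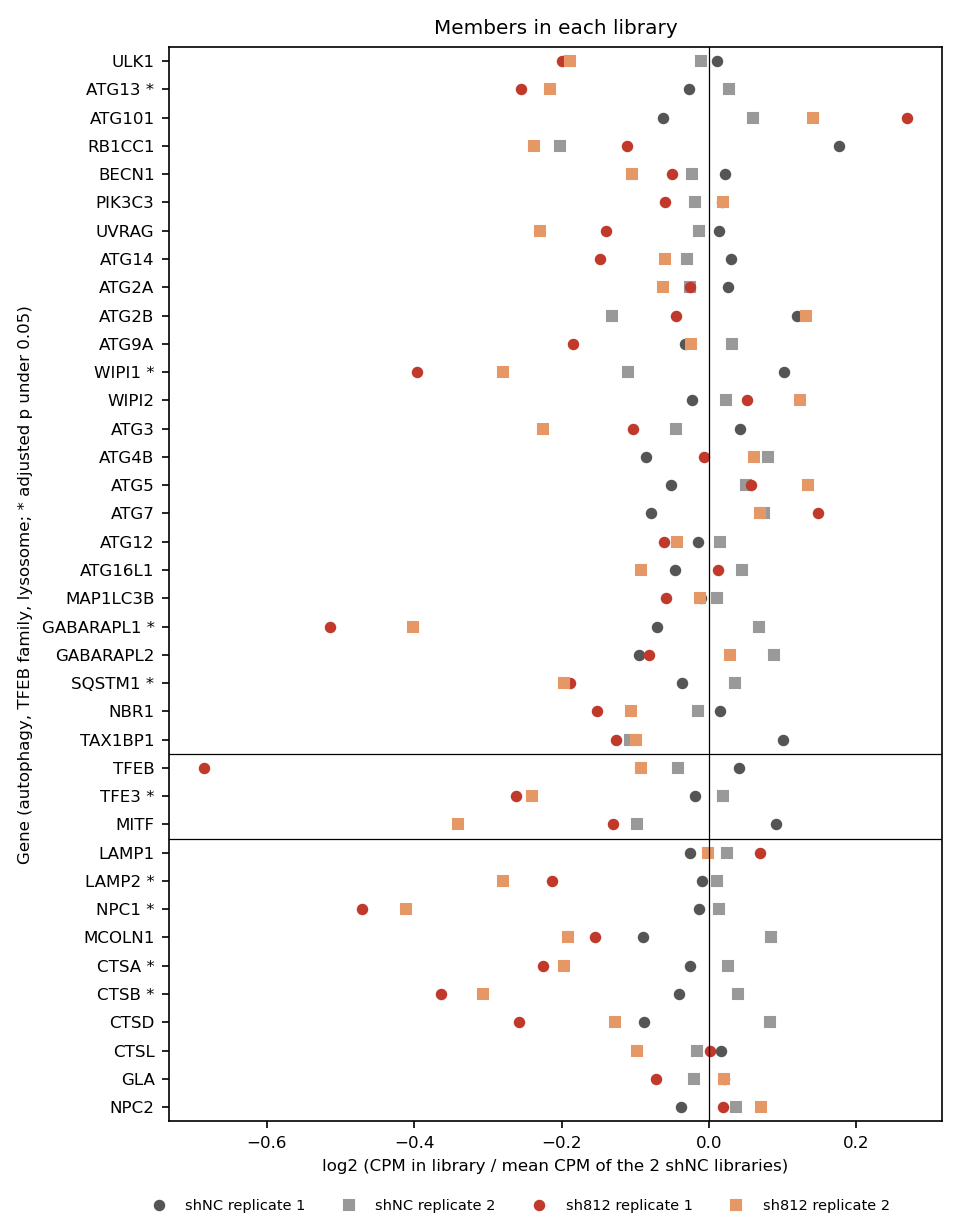
Each row is a member and each point a library, plotted as the log2 ratio of its CPM to the mean CPM of the 2 shNC libraries; circles are replicate 1, squares replicate 2, grey shNC and red or orange sh812, and horizontal lines separate the autophagy, TFEB family and lysosome genes. GABARAP and HEXA are left out for low counts, and both sh812 points lie left of both shNC points in every row marked with an asterisk (adjusted p under 0.05).

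Autophagy and lysosome genes are given apart. In the autophagy list 4 of 26 members fell (15.4%, against 5.42% of all genes called lower, or 7.72% at 10 CPM and above) and 0 rose. In either direction, 16% of the autophagy members at 10 CPM and above were called, near the 16.3% of all genes at that level. The median log2 fold change of the 26 was -0.064, and 19 of them were below 0, beside a median of -0.0056 over all genes tested. In the lysosome list 4 of 10 tested members fell (40%) and 0 rose. At an unadjusted p under 0.05 in edgeR, 0 of the 10 were higher and 6 lower, beside 1995 and 2165 of all 16802 genes. In DESeq2 and limma-voom 0 were higher at that cut as well. The median of these 10 was -0.18, with 8 of them below 0, and it became -0.25 or -0.089 when shNC replicate 1 or 2 was left out. No test of the difference between the 2 lists was made. Summed over its members, the lysosome list held 1395 and 1451 CPM in the shNC libraries and 1245 and 1250 CPM in sh812, and the autophagy list 2075 and 2094 CPM in shNC and 1940 and 1958 CPM in sh812. Both sums were lower in each sh812 library than in either shNC library.

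**Figure D2:**
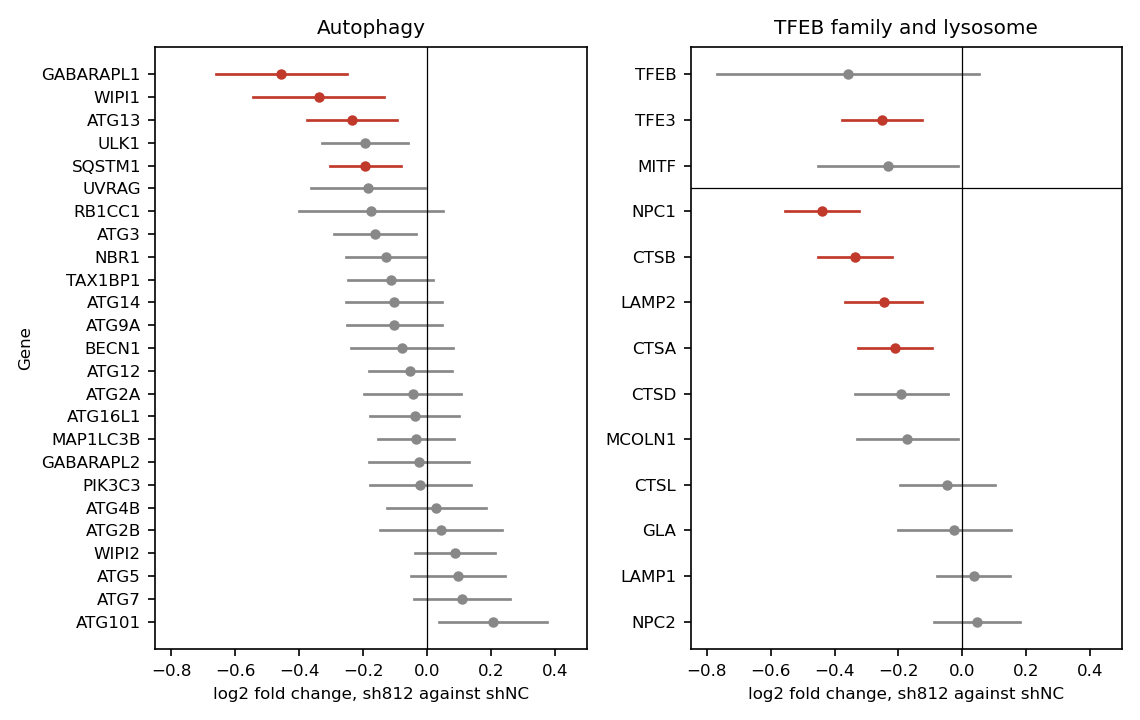
Points are fitted log2 fold changes of sh812 against shNC and bars are approximate 95% intervals from the SE, with members of an adjusted p under 0.05 in red and the others in grey; GABARAP is left out. Among the autophagy genes (left) the estimates run from -0.46 for GABARAPL1 to 0.21 for ATG101, and among the lysosome genes (right, under the line) from -0.44 for NPC1 to 0.046 for NPC2.

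In the ULK complex, which receives the starvation signal from mTOR and AMPK, 1 of 4 members fell. ATG13, the adaptor that holds the complex together (chromosome 11, 46617527 to 46674818 on the plus strand, GENCODE 29), had 68.9 and 71.6 CPM in shNC and 58.9 and 60.5 CPM in sh812. The groups did not overlap, as they did not in 53.6% of all genes tested (27.4% with sh812 lower). The log2 fold change was -0.23 (SE 0.07, edgeR adjusted p = 0.034). Without sh812 replicate 1 or 2 the adjusted p was 0.338 and 0.217 in edgeR, and with each library's trend on gene length removed the change was -0.19 with an adjusted p of 0.0684. ULK1, the kinase itself, had 79.8 and 78.6 CPM in shNC and 69.0 and 69.5 CPM in sh812. These groups did not overlap either, and the fold change of -0.19 (SE 0.07) had an adjusted p of 0.0684 in edgeR. RB1CC1 (FIP200), the large scaffold subunit, stood at 26.5 and 20.4 CPM in shNC and 21.7 and 19.9 CPM in sh812, so that shNC replicate 2 lay among the sh812 values. ATG101, which stabilises ATG13, had 34.4 and 37.4 CPM in shNC and 43.2 and 39.6 CPM in sh812, a log2 fold change of 0.21 (SE 0.09, edgeR adjusted p = 0.129).

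None of the 4 members of the lipid kinase complex passed the test in edgeR, DESeq2 or limma-voom, and 0 had an unadjusted p under 0.05 in edgeR. BECN1, the regulatory subunit, had 42.7 and 41.4 CPM in shNC and 40.6 and 39.1 CPM in sh812. Its log2 fold change was -0.077, with an approximate 95% interval from -0.24 to 0.082. UVRAG, the subunit of the complex used late in the pathway, had the smallest p of the 4, with 32.0 and 31.4 CPM in shNC and 28.8 and 27.1 CPM in sh812. Its groups lay apart, at a log2 fold change of -0.18 (SE 0.09, edgeR adjusted p = 0.212). The catalytic subunit PIK3C3 had a log2 fold change of -0.020 and the targeting subunit ATG14 one of -0.10.

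Among the 5 genes for lipid supply, WIPI1 fell and the other 4 did not pass the test. WIPI1, which reads the lipid mark left by the kinase complex (chromosome 17, 68420948 to 68457513 on the minus strand), had 27.7 and 23.9 CPM in shNC and 19.6 and 21.2 CPM in sh812. All of the sh812 values lay below the shNC values, with the shNC libraries the farther apart. The log2 fold change was -0.34 (SE 0.10, edgeR adjusted p = 0.0366), the adjusted p was 0.0668 in DESeq2, and without shNC replicate 1 the fold change was -0.23 with an adjusted p of 0.229 in edgeR. Leaving out sh812 replicate 1 or 2 gave an adjusted p of 0.361 and 0.153. Its relative WIPI2, the form that recruits the conjugation system, was more abundant and had 106 and 109 CPM in shNC and 111 and 117 CPM in sh812. Both sh812 libraries lay above both controls for WIPI2, with a log2 fold change of 0.088 (edgeR adjusted p = 0.429). ATG2A, ATG2B and the scramblase gene ATG9A had log2 fold changes of -0.045, 0.044 and -0.10, and their groups overlapped. ATG9A shares 38.8% of its exon length on the same strand with AC068946.2, an entry at 0 counts in all libraries. In the annotation 28.1% of the exon length of WIPI1 lies opposite exons of ARSG and AC007780.1, and whether the counting used strand is not given in the sources used here.

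The conjugation machinery did not pass the test at any of its 6 members in edgeR, DESeq2 or limma-voom, and 1 member, ATG3, had an unadjusted p under 0.05 in edgeR. ATG3, the enzyme that transfers ATG8 proteins to lipid, had 130 and 123 CPM in shNC and 118 and 108 CPM in sh812. The groups did not overlap, and the log2 fold change was -0.16 (SE 0.07, edgeR adjusted p = 0.116). ATG5, ATG7, ATG12, ATG16L1 and ATG4B, which form the rest of the ligation cascade and the protease that primes ATG8 proteins, had log2 fold changes from -0.052 for ATG12 to 0.11 for ATG7. The 6 genes summed to 442 and 456 CPM in shNC and 446 and 434 CPM in sh812, so these sums overlapped.

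Of the 4 ATG8 genes, GABARAPL1 fell, and its difference from the other members was not tested. GABARAPL1 (chromosome 12, 10212458 to 10223130 on the plus strand) had 23.8 and 26.2 CPM in shNC and 17.5 and 18.9 CPM in sh812. Its groups lay clearly apart, and it had the most negative log2 fold change of all members, at -0.46 (SE 0.10, edgeR adjusted p = 0.00587), with sh812 at 72.8% of control. Leaving out sh812 replicate 1 or 2 gave an adjusted p of 0.164 and 0.0534 in edgeR. MAP1LC3B, which encodes LC3B, the protein most used to follow autophagosomes, had 136 and 138 CPM in shNC and 132 and 136 CPM in sh812. The log2 fold change was -0.035, with an approximate 95% interval from -0.15 to 0.085. GABARAPL2 had a log2 fold change of -0.024, and its groups overlapped. GABARAP was listed at 9 and 19 counts in shNC and 17 and 21 in sh812, far below its relatives. In the annotation 30.5% of its exon length is shared on the same strand with another protein-coding entry, AC120057.2, which has 0 counts in all libraries, so its count is uncertain and its fold change is not described. GABARAPL1 and MAP1LC3B each have a near-identical gene copy, GABARAPL3 and MAP1LC3B2, and reads that match both are uncertain.

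Of the 3 cargo receptors, SQSTM1 fell. SQSTM1 encodes p62, which links ubiquitinated cargo to ATG8 proteins (chromosome 5, 179806398 to 179838078 on the plus strand). It was the most abundant member per length of exon in shNC, at 68.2 CPM per kb. It had 509 and 535 CPM in shNC and 458 and 455 CPM in sh812, with the sh812 libraries close together and below both controls. The log2 fold change was -0.19 (SE 0.06, edgeR adjusted p = 0.0278), and with the trend on gene length removed it was -0.14 with an adjusted p of 0.0955. For SQSTM1 the adjusted p without sh812 replicate 1 or 2 was 0.329 and 0.314 in edgeR. NBR1, a second ubiquitin-binding receptor, had 109 and 107 CPM in shNC and 97.0 and 100 CPM in sh812, and a log2 fold change of -0.13 (edgeR adjusted p = 0.219). TAX1BP1 had a log2 fold change of -0.11, and its shNC replicate 2, at 123 CPM, lay between the sh812 libraries. Exons of MGAT4B and MRNIP on the opposite strand cover 22% of the exon length of SQSTM1.

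Without either sh812 library, 0 autophagy members passed the test in edgeR. At an unadjusted p under 0.05, 0 were higher and 4 lower without sh812 replicate 1, and 1 was higher and 3 lower without sh812 replicate 2. Without shNC replicate 2 there were 8 lower and 1 higher autophagy members, with 3326 genes called over all.

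Of the 3 genes of the TFEB family, TFE3 fell. Both sh812 libraries lay below both shNC libraries for all 3, as they did for 27.4% of all genes tested. TFE3, by far the most abundant of the 3 in these cells (chromosome X, 49028726 to 49043486 on the minus strand), had 112 and 115 CPM in shNC and 94.6 and 96.0 CPM in sh812. The libraries of each group lay close together, and sh812 was at 84.0% of control. The log2 fold change was -0.25 (SE 0.06, edgeR adjusted p = 0.0121). TFEB, the member best known as the lysosomal master regulator, was scarce, at 5.09 and 4.81 CPM in shNC and 3.08 and 4.64 CPM in sh812. Its groups were apart by less than the spread between the sh812 libraries, and the log2 fold change of -0.36 (SE 0.21, edgeR adjusted p = 0.303) came to -0.094 and -0.69 when sh812 replicate 1 or 2 was left out. MITF, best known from pigment cells, had 22.8 and 19.98 CPM in shNC and 19.5 and 16.9 CPM in sh812. The gap between its groups was small beside the spread within each, with a log2 fold change of -0.23 (SE 0.11, edgeR adjusted p = 0.194). Per length of exon in shNC the order was TFE3 at 26.5, MITF at 2.98 and TFEB at 0.876 CPM per kb. Without sh812 replicate 1 or 2 the adjusted p of TFE3 was 0.234 and 0.167 in edgeR, at fold changes of -0.24 and -0.26.

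Of the 4 lysosomal membrane proteins, NPC1 and LAMP2 fell. NPC1 exports cholesterol from the lysosome (chromosome 18, 23506184 to 23586898 on the minus strand). It had 222 and 226 CPM in shNC and 162 and 169 CPM in sh812. The gap between the groups was far wider than either spread, and sh812 was at 73.7% of control. The log2 fold change was -0.44 (SE 0.06), with the smallest p-value among members (edgeR adjusted p = 2.15e-05), and it passed the test in all 13 alternatives, with an adjusted p from 4.65e-14 to 0.0154. LAMP2, a main glycoprotein of the lysosomal membrane that also serves chaperone-mediated autophagy (chromosome X, 120427827 to 120469365 on the minus strand), had 144 and 147 CPM in shNC and 126 and 120 CPM in sh812. Its groups did not overlap, with a log2 fold change of -0.25 (SE 0.06, edgeR adjusted p = 0.011) and an adjusted p of 0.137 and 0.255 without sh812 replicate 1 or 2. Its close relative LAMP1 behaved otherwise, at 281 and 291 CPM in shNC and 300 and 286 CPM in sh812. The LAMP1 groups overlapped, and its log2 fold change of 0.035 had an approximate 95% interval from -0.079 to 0.15. The approximate intervals of LAMP1 and LAMP2 did not overlap, but such intervals are narrow for 2 libraries a group. The difference between the genes was not itself tested. MCOLN1, the calcium channel TRPML1, had 47.4 and 53.4 CPM in shNC and 45.2 and 44.1 CPM in sh812, and a log2 fold change of -0.17 (edgeR adjusted p = 0.189).

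Among the cathepsins, CTSB and CTSA fell. CTSB, a cysteine protease (chromosome 8, 11842524 to 11869448 on the minus strand), had 270 and 285 CPM in shNC and 216 and 224 CPM in sh812. The groups lay well apart, with sh812 at 79.3% of control and a log2 fold change of -0.34 (SE 0.06, edgeR adjusted p = 0.000544). Without sh812 replicate 1 its adjusted p was 0.091. CTSA, which protects lysosomal beta-galactosidase and neuraminidase (chromosome 20, 45890144 to 45898820 on the plus strand), had 192 and 199 CPM in shNC and 167 and 171 CPM in sh812. Its log2 fold change was -0.21 (SE 0.06, edgeR adjusted p = 0.0225), with an adjusted p of 0.326 and 0.223 without sh812 replicate 1 or 2, and 28.5% of its exon length lies opposite exons of PLTP, NEURL2 and AL008726.1. The aspartic protease CTSD had 78.0 and 87.8 CPM in shNC and 69.3 and 75.9 CPM in sh812. The CTSD groups were narrowly apart, with a log2 fold change of -0.19 (edgeR adjusted p = 0.1002). On the same strand, 41.7% of its exon length is shared with AC068580.4, an entry at 0 counts in all libraries. CTSL, a further cysteine protease, had a log2 fold change of -0.047, and its groups overlapped.

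The remaining lysosome members did not pass the test. GLA, the alpha-galactosidase that is missing in Fabry disease, had 31.3 and 30.4 CPM in shNC and 29.3 and 31.3 CPM in sh812. NPC2, which hands cholesterol to NPC1 inside the lysosome, had 73.0 and 76.9 CPM in shNC and 76.0 and 78.8 CPM in sh812. Both pairs of groups overlapped, with log2 fold changes of -0.026 and 0.046, and approximate 95% intervals from -0.20 to 0.15 and from -0.089 to 0.18. HEXA, a subunit of beta-hexosaminidase, was listed at 1 and 1 counts in shNC and 0 and 4 in sh812. HEXA shares 4.89% of its exon length on the same strand with AC009690.1, which is at 0 counts throughout. Whether reads of such genes were left out in counting was not tested, and no level is read from the HEXA counts.

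**Figure D3:**
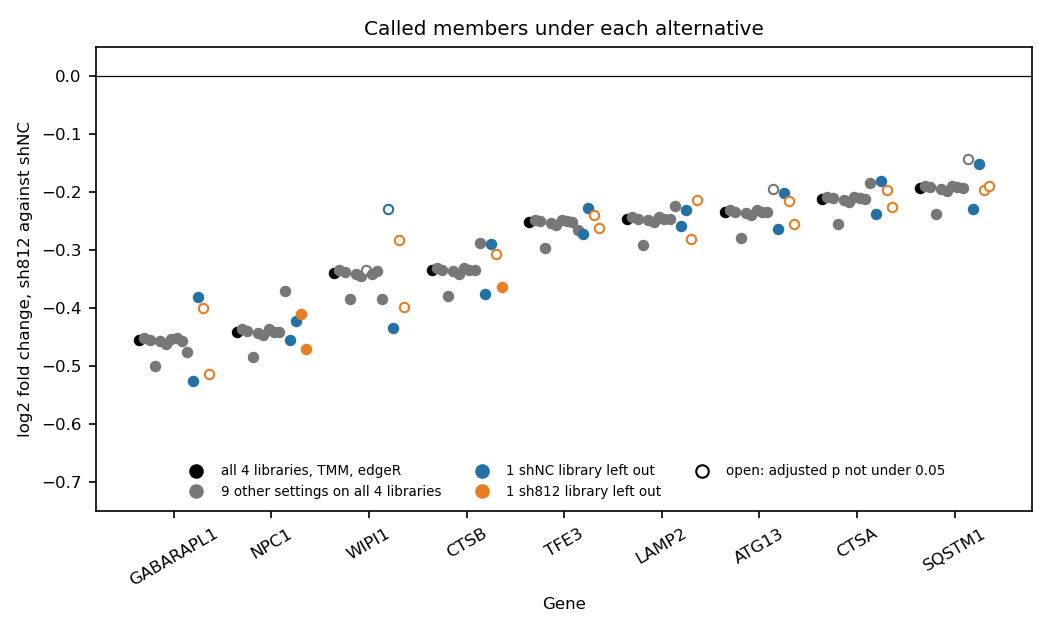
Each point is the log2 fold change of a called member under 1 setting, filled where the adjusted p was under 0.05 and open where it was not; black is the reported value, grey the 9 other settings on all 4 libraries, blue the fits without 1 shNC library and orange the fits without 1 sh812 library. All points lie below 0, and NPC1 is filled in every setting.

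Other genes of the same systems, taken from lists of the pathway that were chosen by role, were examined next. Of 60 other autophagy genes tested, 8 fell and 3 rose (13.3% and 5%), with a median log2 fold change of -0.071. Over all genes tested 5.42% were called lower and 5.43% higher, so the share of the 60 that rose was near that of all genes. At 10 CPM and above, 14.8% of the list fell and 3.7% rose, against 7.72% and 8.54% of all genes at that level. In either direction, 18.5% of the list at 10 CPM and above were called, against 16.3% of all genes at that level. Of the 60, those that fell were ULK2, RUBCN, AMBRA1, ZFYVE1, OPTN, BNIP3L, VPS41 and YKT6, and those that rose were ATG4C, BNIP3 and RRAGD. OPTN, a receptor for damaged mitochondria, had 53.1 and 52.4 CPM in shNC and 37.9 and 41.2 CPM in sh812. Its groups lay far apart, with a log2 fold change of -0.41 (SE 0.08, edgeR adjusted p = 0.00136). ULK2, the paralogue of ULK1, had 18.5 and 19.6 CPM in shNC and 12.3 and 13.7 CPM in sh812. That is 68.0% of control, at a log2 fold change of -0.55 (SE 0.12, edgeR adjusted p = 0.00277). AMBRA1, a scaffold of the BECN1 complex, had 26.4 and 28.9 CPM in shNC and 20.5 and 19.9 CPM in sh812, and a log2 fold change of -0.45 (SE 0.10, edgeR adjusted p = 0.00437).

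Of the genes that rose, RRAGD encodes a Rag GTPase that brings mTOR and the TFEB family to the lysosome. It had 2.77 and 3.04 CPM in shNC and 6.67 and 6.43 CPM in sh812, so both sh812 libraries were more than 2-fold above both controls. Its log2 fold change of 1.18 (SE 0.19, edgeR adjusted p = 0.000211) was the largest in size among all listed autophagy and lysosome genes, at a low level of expression. BNIP3, a mitophagy receptor induced by low oxygen, had 228 and 236 CPM in shNC and 261 and 289 CPM in sh812, a log2 fold change of 0.24 (SE 0.06, edgeR adjusted p = 0.0114), while its relative BNIP3L fell by 0.25 (edgeR adjusted p = 0.0179). ATG4C, an ATG8 protease, had 22.5 and 21.9 CPM in shNC and 26.7 and 27.8 CPM in sh812, with a log2 fold change of 0.30 (SE 0.10, edgeR adjusted p = 0.0477). In the role of upstream kinases and regulators, which holds MTOR, the TSC genes and the AMPK subunits, RRAGD was the only one of 17 genes called.

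Of 72 other lysosome genes tested, 13 fell and 1 rose (18.1% and 1.39%), beside 5.42% and 5.43% of all genes. In either direction, 21.7% of the list at 10 CPM and above were called, against 16.3% of all genes at that level. A log2 fold change below 0 was found for 59 of the 72 (81.9%), beside 51% of all genes tested and 48.5% of those at 10 CPM and above. The median of the 72 was -0.15. The genes that fell were LAMP3, SCARB2, TPCN1, OSTM1, CTSS, CTSZ, GAA, SGSH, SMPD1, PSAP, ATP6AP1, M6PR and IGF2R, and the gene that rose was ATP6V1G1. GAA, the acid glucosidase that breaks down glycogen, had 167 and 182 CPM in shNC and 126 and 129 CPM in sh812. Its groups lay far apart, and the log2 fold change was -0.45 (SE 0.06, edgeR adjusted p = 3.15e-05). ATP6AP1, an accessory subunit of the proton pump, had 97.3 and 104 CPM in shNC and 75.4 and 77.7 CPM in sh812, with a log2 fold change of -0.40 (SE 0.07, edgeR adjusted p = 0.000359). SGSH, a sulfatase for heparan sulfate, had 51.5 and 48.8 CPM in shNC and 36.1 and 38.9 CPM in sh812, with a log2 fold change of -0.42 (SE 0.08, edgeR adjusted p = 0.00149).

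By role, the membrane proteins and channels of this second lysosome list were below 0 in 12 of 12 genes tested (median -0.20, 4 called lower) and the enzymes for sugars, sulfates and lipids in 25 of 28 (median -0.15, 4 called lower). The 15 tested V-ATPase genes, which build the proton pump, had a median of -0.048, with 1 called lower and 1 higher. The gene that rose, ATP6V1G1, a stalk subunit of the pump, had 75.5 and 77.9 CPM in shNC and 91.1 and 89.1 CPM in sh812. This gave a log2 fold change of 0.23 (SE 0.07, edgeR adjusted p = 0.0248). With library size alone, and with the length trend removed, the list had 0 genes called higher, with 1 gene higher at an unadjusted p under 0.05 in each. The 6 genes for sorting of hydrolases had a median of -0.054. Both sh812 libraries lay above both controls for 2 of them and below both for 3. Over all genes tested, these shares were 26.2% and 27.4%. Among these 6, M6PR and IGF2R, the receptors that carry hydrolases by their mannose 6-phosphate tag, fell, with log2 fold changes of -0.29 and -0.23 (edgeR adjusted p = 0.0104 and 0.0121). CLN3 and ATP6V0C were listed at 1 to 7 counts per library and were not tested. They share 25.2% and 72.1% of their exon length with other genes on the same strand. Leaving out sh812 replicate 1 or 2 left 3 and 4 genes of this list called, and 1 and 3 of the other autophagy genes.

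**Figure D4:**
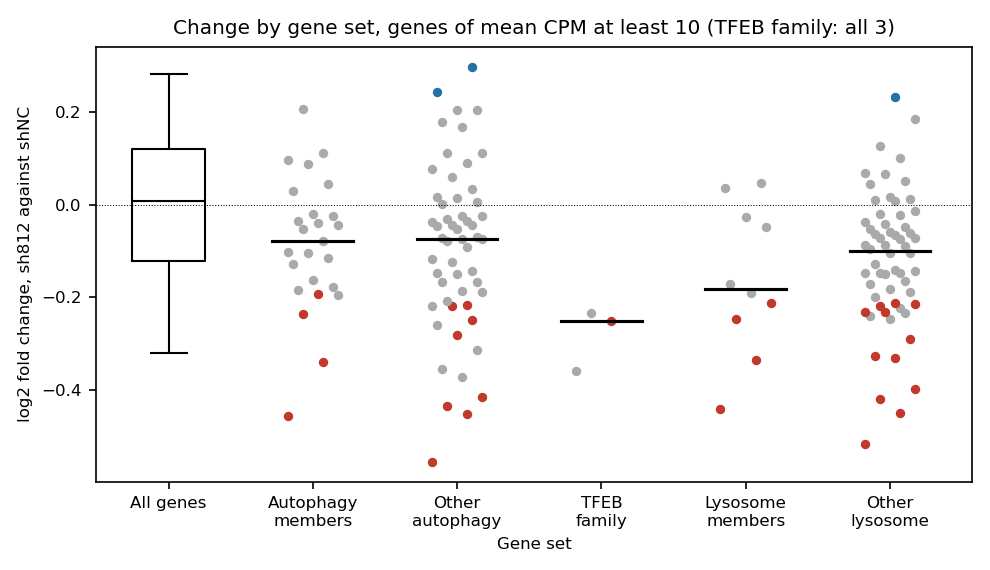
Points are log2 fold changes of single genes in each list, red where called lower, blue where called higher and grey otherwise, with the list median as a black bar; the box on the left spans the quartiles of all 9543 genes of mean CPM at least 10, with whiskers from the 5th to the 95th percentile. Only genes of mean CPM at least 10 are drawn, except that all 3 genes of the TFEB family are. Both lysosome lists lie mostly below 0, with medians of -0.18 for the members and -0.099 for the other genes at this level, against 0.0072 for all genes.

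Members with the E-box stood on both sides of the threshold. LAMP1, with 6 E-boxes, was not called and had the second highest log2 fold change of the lysosome members tested, while NPC1, with none in its window, had the lowest. CTSA fell, and MCOLN1, CTSD, ATG3 and ATG14, which also carry the motif, did not pass the test. Of the 7 listed lysosomal genes with the full palindrome, GAA and IGF2R fell, ATP6V1G1 rose, and MCOLN1, GALNS, PLBD2 and GNPTG did not pass the test. Of the 6 other called members with a window, ATG13, WIPI1, GABARAPL1, SQSTM1, TFE3 and NPC1, none held an E-box. Among all tested genes with a window 12.1% held one, so 6 genes are too few to set against that share.

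Since METTL3 methylates adenosines in a preferred context, the pentamer GGACT was counted in the longest protein-coding transcript of each gene in GENCODE 29. The 9 called members had a median of 0.774 GGACT per kb, the 30 other tested members 0.977, and the 13237 genes with such a transcript 0.925. Values among the 9 ran from 0 in LAMP2 to 2.05 in TFE3. All genes called lower had a median of 0.898 and all genes called higher one of 0.934. The pentamer is only part of the known consensus, the longest transcript may not be the one expressed, and no methylation was measured here.

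Levels and changes were also set against gene length, because the libraries differ along it. The tested members had a median exon length of 6047 bases, against 4423 for all genes tested, so the all-gene shares come from genes that are mostly shorter. Across 12257 genes, the Spearman correlation of the log2 difference between groups with exon length was -0.30, and that between the shNC replicates (replicate 2 minus replicate 1) was -0.30 as well, while it was 0.031 between the sh812 replicates. Across the 39 tested members these values were -0.045, -0.36 and -0.19, which describe the genes within these libraries. With each library's length trend removed, 2 autophagy members (GABARAPL1 and WIPI1) and TFE3 were called, with 5 lysosome members, CTSD being added.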

How the data were processed

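The authors deposited 1 table of raw gene counts for 4 poly(A) RNA libraries of PC3 cells. The submitters' processing notes name fastp, STAR 2.7.1a, featureCounts, DESeq2 and build hg38. The annotation release, the use of strand and the unit counted (reads or pairs) are not given in the sources used here. All deposited counts are integers, and totals differ between libraries.

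Counts were tested in R 4.3.3 with edgeR 4.0.16 (filterByExpr, TMM, glmQLFit and glmQLFTest, 16802 genes, no covariate, Benjamini-Hochberg over all genes tested), and called at an adjusted p under 0.05. SE came from the F statistic. With 2 residual degrees of freedom, the test moderates the spread of each gene over all genes. Approximate 95% intervals are 1.96 SE to each side, which is somewhat narrow for that moderated test. The interval of UVRAG excluded 0 although its unadjusted p was 0.0541 in edgeR. CPM used TMM-scaled library sizes. Per-kb values used merged exons of GENCODE 29, which also gave positions and overlaps and covered 99.0% of the genes tested. Replicates differed by more than sampling noise (chi-square per gene 8.43 in shNC and 4.51 in sh812).

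The members and lists were chosen with earlier results of these data known. Named with full values were called members, 8 fixed members, the member of smallest p in each role without a call, and the 3 genes of smallest p per direction in the 2 wider lists. Values given for further genes were chosen after they were seen, as were the 10 CPM background and the motif counts. The wider lists had 63 autophagy and 74 lysosome genes in the table. Some results are not reported here. Alternatives were RLE, upper quartile and library size scaling, other filters, DESeq2 1.42.0, limma-voom (limma 3.58.1), the replicate block, removal of a lowess length trend and each library left out, where a lone library is assumed to vary like the others. The fits were tested on simulated counts.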

Additional observations from a re-analysis of the deposited data

How the results depend on the processing

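METTL3 was past the threshold in all 13 alternatives, with a log2 fold change from -2.52 to -2.33 where 1 library was left out. All 9 called members kept a negative fold change in all 13 alternatives. Of 81 values under the 9 alternatives on all 4 libraries, 78 stayed past the threshold, and the 3 that did not were ATG13 and SQSTM1 with the length trend removed and WIPI1 in DESeq2. With 1 library left out, 20 of 36 values stayed past it. The number of called autophagy members was 2 with the length trend removed, and ran from 0 without either sh812 library to 9 without shNC replicate 2. The median of the autophagy members was -0.11 with library size alone, -0.083 with a mean CPM of at least 1 and -0.044 with the length trend removed. With 1 library left out it ran from -0.071 to -0.061. Library size alone moves the median of all genes to -0.050. For the other counts, leaving out 1 library gave 313 to 3326 genes over all, 1 to 6 lysosome members, 0 to 2 genes of the TFEB family, 1 to 21 other autophagy genes and 3 to 20 other lysosome genes. The lysosome median ran from -0.25 to -0.089. For these changes the cause was not tested.

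Replicate numbers 1 and 2 occur in each group, and the labels do not say what they mark. Across genes, libraries of the same number deviated from their group means with a correlation of 0.0164, so the numbers were not read as pairs. The replicate block gave 2001 called genes over all, 4 autophagy and 4 lysosome members, TFE3, 13 other autophagy and 15 other lysosome genes, with -2.42 for METTL3. The medians were -0.064 and -0.18. With 2 libraries a group, a member that did not pass the test may still differ by a small amount.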
